A study of Setaria viridis with 23 samples.

Results

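SvBrm (Sevir.2G237500.1) and SvSyd (Sevir.4G112300.1) are the Setaria viridis homologs of the Arabidopsis genes BRAHMA (BRM) and SPLAYED (SYD), and both were described here through early inflorescence development. They were chosen by identifier, as 2 of the 35214 genes in the count table, and both passed the filter on low counts, as 21180 genes did. RNA-seq libraries had been made from dissected inflorescence primordia of S. viridis accession A10.1, with 4 libraries at 10 days after sowing (DAS), 3 at 12 DAS, and 4 each at 14, 15, 16 and 18 DAS. All plants were of this single genotype, were grown in 1 chamber regime and received no treatment, so age was the only factor. A library holds the RNA of a pool of primordia, and the replicate error is therefore an error between pools rather than plants. In these primordia the inflorescence meristem forms at 10 DAS, branches of successive orders form at 12 and 14 DAS, spikelet meristems appear at 15 DAS, spikelets and bristles separate at 16 DAS, and floral organs develop at 18 DAS. The 3 younger stages were sequenced paired-end, with only read 1 counted, and the 3 older stages single-end. In comparisons that cross this border, run and age cannot be told apart.

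BRM and SYD are the central ATPases of SWI/SNF chromatin remodeling complexes in Arabidopsis. Such an ATPase uses the energy of ATP to slide or evict nucleosomes, which opens or closes promoters and enhancers to transcription factors, and it works with core subunits such as SWI3 proteins and accessory subunits with SWIB domains. In Arabidopsis both ATPases act in meristem maintenance, boundary formation and the activation of floral homeotic genes, and BRM interacts with the class I KNOX protein BREVIPEDICELLUS. No role of either gene in S. viridis is assumed below.

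Transcripts of both genes were abundant in all 23 libraries, with a minimum at 10 DAS and a maximum at 16 DAS. Levels are given in CPM, which are counts scaled to a common library total by TMM normalization, the edgeR scaling that equalizes the bulk of genes between libraries. SvBrm was at 149, 130, 102 and 172 CPM in the 4 libraries of 10 DAS, at 162, 202 and 164 CPM in the 3 of 12 DAS, and at 253, 219, 168 and 238 CPM in the 4 of 14 DAS. In the 4 libraries of 15 DAS it was at 250, 222, 214 and 276 CPM, in those of 16 DAS at 342, 322, 363 and 371 CPM, and in those of 18 DAS at 208, 248, 245 and 214 CPM. All 4 libraries of 16 DAS thus lay above every other library in the series, whereas those of 14, 15 and 18 DAS overlapped. SvSyd was at 319, 309, 269 and 372 CPM in the libraries of 10 DAS, at 376, 466 and 396 CPM in those of 12 DAS, and at 576, 509, 418 and 545 CPM in those of 14 DAS. In the libraries of 15 DAS it was at 667, 598, 876 and 875 CPM, in those of 16 DAS at 881, 859, 1010 and 1083 CPM, and in those of 18 DAS at 521, 590, 575 and 516 CPM. Replicate 3 was the lowest library of both genes at 10 and at 14 DAS, and the 15 DAS libraries of SvSyd fell into a lower pair, replicates 1 and 2, and a higher pair, replicates 3 and 4.

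**Figure D1:**
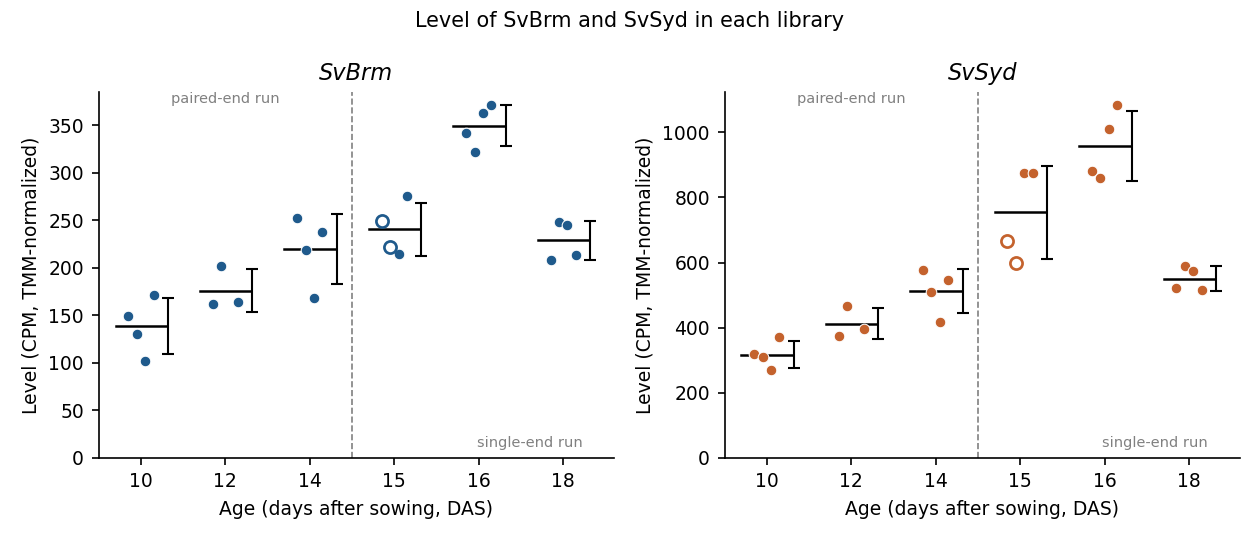
Level of SvBrm (left) and SvSyd (right) in CPM in each of the 23 libraries against age in DAS. Each point is a library, horizontal lines are stage means, bars are ± 1 SD, open points are the 2 shallowest libraries (15 DAS replicates 1 and 2), and the dashed line separates the sequencing runs. The 4 libraries of 16 DAS are the highest of SvBrm, and the 15 DAS libraries of SvSyd spread from 598 to 876 CPM.

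Library totals ran from 7630744 to 24467495 counts, and the shallowest libraries were replicates 1 and 2 of 15 DAS, with 8964218 and 7630744. SvBrm rested on 1687 to 5296 counts and SvSyd on 4446 to 15250 counts per library. The counting error was therefore at most 2.43% for either gene, whereas the coefficient of variation between replicates was 6.28% to 21.3% for SvBrm and 6.82% to 18.9% for SvSyd, so the spread between pools exceeded the counting error. The deposited count of SvSyd was whole in every library, and that of SvBrm carried a fraction in 19 of 23, as Salmon gives where it divides a read between similar transcripts. Rounding changed it by at most 0.5 counts. Among the markers of the tissue, the KNOX genes SvKn1 and SvRs1 were at 87.4 CPM or more in every library, the stem cell gene SvWus reached at most 3.85 CPM, the spikelet meristem gene SvBd1 was at 0 in 2 of 4 libraries of 10 DAS and 2 of 3 of 12 DAS, and floral organ genes became abundant at 18 DAS. In bulk tissue, fewer cells of a type and less RNA per cell cannot be told apart.

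Both genes differed among the 6 stages, with an edgeR adjusted p of 2.63e-07 for SvBrm and 2.72e-09 for SvSyd. Such differences were common, since 88.3% of all tested genes passed this test. The highest stage mean was 2.53 times the lowest for SvBrm and 3.02 times for SvSyd, against a median of 1.87 over all tested genes. These ranges were wider than those of 71.0% and 77.7% of the tested genes. For both genes the highest stage was 16 DAS and the lowest 10 DAS, which lie in different runs. The test among the 6 stages also spans both runs, so here run and age cannot be told apart.

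Within the paired-end run, from the inflorescence meristem to higher order branching, both genes rose. SvBrm averaged 219 ± 36.8 CPM at 14 DAS and 138 ± 29.4 CPM at 10 DAS (SD, n = 4 each), a log2 fold change of 0.67 ± 0.14 (SE, adjusted p = 0.000431). SvSyd averaged 512 ± 68.3 CPM at 14 DAS and 317 ± 42.4 CPM at 10 DAS (SD, n = 4 each), a log2 fold change of 0.69 ± 0.13 (SE, adjusted p = 0.000183). All 14 DAS libraries of SvSyd exceeded all those of 10 DAS, whereas 1 library of SvBrm at 14 DAS, at 168 CPM, lay below the highest of 10 DAS, at 172 CPM. Of all tested genes, 20.7% were higher and 21.5% lower at 14 than at 10 DAS. The difference among 10, 12 and 14 DAS passed the test for both (adjusted p = 0.00173 for SvBrm and 0.000763 for SvSyd), as it did for 35.7% of all genes.

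The steps inside this interval did not pass the test. At 12 DAS the mean was 176 ± 22.4 CPM for SvBrm and 413 ± 47.4 CPM for SvSyd (SD, n = 3). The log2 fold change of 12 over 10 DAS was 0.35 for SvBrm (95% interval 0.05 to 0.65, adjusted p = 0.118) and 0.38 for SvSyd (0.09 to 0.66, adjusted p = 0.0704), where 6.61% of all genes were called higher. For SvSyd the adjusted p of this step was 0.0483 with scaling by library size alone, and without replicate 4 of 10 DAS, the highest library of that stage, it was 0.0254, with 0.0268 for SvBrm. Without replicate 2 of 15 DAS it was 0.0436 for SvSyd. The log2 fold change of 14 over 12 DAS was 0.32 for SvBrm (0.02 to 0.62, adjusted p = 0.249) and 0.31 for SvSyd (0.02 to 0.60, adjusted p = 0.236), where 2.31% of all genes were called higher. Both genes of chloroplast proteins on the marker list moved the other way in this run, and their summed level was 39.7 to 44.8 CPM at 14 DAS, against 64.6 to 80.2 CPM at 10 DAS. The summed level of the 3 meristem genes was 604 to 801 CPM at 14 DAS, against 198 to 347 CPM at 10 DAS, and the part of tissue composition in these results was not tested.

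Between 14 and 15 DAS, where the run changes, the 2 genes gave different results. SvSyd averaged 754 ± 143 CPM at 15 DAS and 512 ± 68.3 CPM at 14 DAS (SD, n = 4 each), a log2 fold change of 0.56 ± 0.13 (SE, adjusted p = 0.000851), and all 15 DAS libraries exceeded all those of 14 DAS. SvBrm averaged 240 ± 28.2 CPM at 15 DAS and 219 ± 36.8 CPM at 14 DAS (SD, n = 4 each), a log2 fold change of 0.13 with a 95% interval of -0.15 to 0.41 (adjusted p = 0.422), and the libraries overlapped. This value was 0.02 without replicate 3 of 14 DAS, 0.05 without replicate 4 of 15 DAS, 0.21 without replicate 1 of 14 DAS and 0.23 with scaling by library size alone, and did not pass the test in any of these. In this comparison 29.4% of all genes were called higher and 27% lower. The mean of the 3 later stages exceeded that of the 3 earlier stages by 0.62 ± 0.08 for SvBrm and by 0.86 ± 0.08 for SvSyd on the log2 scale (SE, adjusted p = 4.43e-07 and 1.27e-09), as was called for 36.7% of all genes, and here too run and age cannot be told apart.

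Within the single-end run, from spikelet meristem formation to floral organs, both genes peaked at 16 DAS. The difference among 15, 16 and 18 DAS passed the test for both genes (adjusted p = 0.000872 for SvBrm and 0.000111 for SvSyd), as it did for 57.7% of all genes. SvBrm averaged 350 ± 21.9 CPM at 16 DAS and 240 ± 28.2 CPM at 15 DAS (SD, n = 4 each), a log2 fold change of 0.54 ± 0.14 (SE, adjusted p = 0.00531), with all 16 DAS libraries above all those of 15 DAS. This step was called higher for 13.8% and lower for 14.8% of all genes. SvSyd averaged 958 ± 107 CPM at 16 DAS and 754 ± 143 CPM at 15 DAS (SD, n = 4 each), a log2 fold change of 0.35 ± 0.13 (SE, adjusted p = 0.0471), and its libraries overlapped. That call was at the edge of the threshold. Without the 2 shallow libraries of 15 DAS the log2 fold change of SvSyd was 0.14 with an adjusted p of 0.459, and in a fit of these stages alone the adjusted p was 0.132. Omission of replicate 1 or 2 of 15 DAS, or of replicate 1, 3 or 4 of 16 DAS, gave an adjusted p of 0.0508 to 0.145. Left out singly, 9 libraries of other stages also gave values above the threshold, up to 0.0545. Those libraries enter through the shared spread, the scaling, the filter and the adjustment.

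Both genes fell at 18 DAS. SvBrm averaged 229 ± 20.8 CPM at 18 DAS and 350 ± 21.9 CPM at 16 DAS (SD, n = 4 each), a log2 fold change of -0.61 ± 0.14 (SE, adjusted p = 0.00126). SvSyd averaged 550 ± 37.5 CPM at 18 DAS and 958 ± 107 CPM at 16 DAS (SD, n = 4 each), a log2 fold change of -0.80 ± 0.13 (SE, adjusted p = 6.35e-05). For both genes every library of 18 DAS lay below every library of 16 DAS, in a comparison in which 20.2% of all genes were called higher and 16.3% lower. The call held in every fit that left out a library, with log2 fold changes of -0.65 to -0.57 for SvBrm and -0.85 to -0.74 for SvSyd. Over the whole run, 18 against 15 DAS, SvSyd fell by 0.45 ± 0.13 on the log2 scale (SE, adjusted p = 0.00686, called lower for 20.6% of all genes), with no overlap of libraries, and SvBrm changed by -0.07 with a 95% interval of -0.35 to 0.21 (adjusted p = 0.70). The summed level of the 3 floral organ markers was 19.2 to 43.0 CPM at 18 DAS, against 1.05 to 1.76 CPM at 16 DAS. That of the 3 meristem genes fell, with 517 to 645 CPM at 18 DAS, against 665 to 888 CPM at 16 DAS. That of the 2 chloroplast genes was 45.9 to 58.5 CPM, against 36.9 to 41.8 CPM. The part of these changes of tissue in the decline was not tested.

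**Figure D2:**
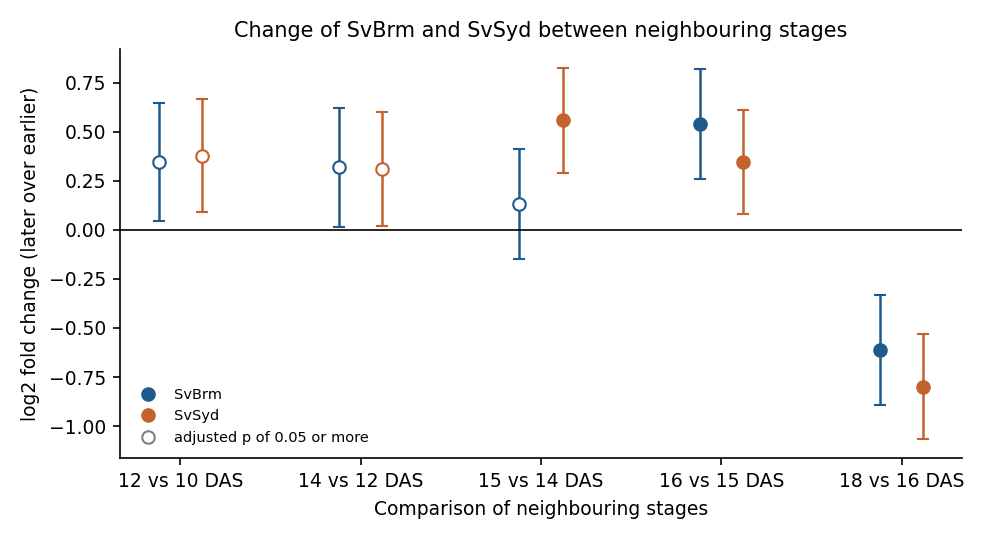
Log2 fold change of SvBrm and SvSyd, later over earlier stage, in the 5 comparisons of neighbouring stages, with 95% intervals from the edgeR fit. Filled points passed an adjusted p of 0.05. Only SvSyd passed between 14 and 15 DAS, at 0.56, both genes passed at 16 over 15 DAS, and both were lower at 18 than at 16 DAS, by -0.61 and -0.80.

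The order of the stage means was the same for the 2 genes: 10, 12, 14, 18, 15 and 16 DAS from low to high. Of the neighbours in this order, 12 and 10 DAS, and 14 and 12 DAS, did not pass the test for either gene. The libraries of 18 DAS lay at 208 to 248 CPM for SvBrm and 516 to 590 CPM for SvSyd, and those of 14 DAS at 168 to 253 CPM and 418 to 576 CPM, so the ranges overlapped, although these stages came from different runs and were not tested. For the upper end of the order, 18 and 15 DAS did not differ beyond their spread for SvBrm and did for SvSyd.

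The ratio of SvBrm to SvSyd within a library does not depend on the scaling of that library, and therefore tests whether the 2 genes changed in proportion. Counts also grow with transcript length, so the ratio does not say which gene made more transcripts, and only its change with age was read. At 10, 12 and 14 DAS the log2 ratio averaged -1.21 ± 0.14, -1.23 ± 0.03 and -1.23 ± 0.06, in this order, and at 15, 16 and 18 DAS -1.64 ± 0.29, -1.45 ± 0.08 and -1.27 ± 0.04 (SD, n = 4, and n = 3 for 12 DAS). During the first 3 stages, while both transcripts increased, the ratio differed by at most 0.02 between stage means. At 15 DAS it was -1.42, -1.43, -2.03 and -1.66 in the 4 libraries, all below the lowest of 14 DAS, and the 2 shallow libraries gave the values nearest to those of 16 DAS. At 18 DAS it was -1.32, -1.25, -1.23 and -1.27, against -1.36, -1.41, -1.48 and -1.55 at 16 DAS, with no overlap.

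Of the 7 comparisons of this ratio, 3 separated the libraries completely. The mean changed by -0.41 for 15 against 14 DAS, by 0.18 for 18 against 16 DAS and by 0.37 for 18 against 15 DAS. Each had a two-sided exact permutation p of 0.0286, the smallest that groups of this size allow, and an adjusted p of 0.0667 over the 7 comparisons, so none passed the correction. With only 3 comparisons at this smallest value, none of the 7 can pass, so the adjusted p cannot decide whether the ratio changed. The difference of 0.19 for 16 against 15 DAS gave an exact permutation p of 0.257. Without replicate 3 of 15 DAS, the library with the lowest ratio, the changes were -0.28 for 15 against 14 DAS, 0.24 for 18 against 15 DAS and 0.05 for 16 against 15 DAS. Without both shallow libraries of 15 DAS they were -0.62, 0.58 and 0.40 in the same order, so their size depended on which 15 DAS libraries were used. Comparisons within the first run gave exact permutation p values of 0.886 to 0.971. Hence SvSyd was higher relative to SvBrm in all 4 libraries of 15 DAS than in any of 14 DAS, where run and age cannot be told apart. The opposite differences at 18 DAS lie within the single-end run, and they too did not pass the correction.

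**Figure D3:**
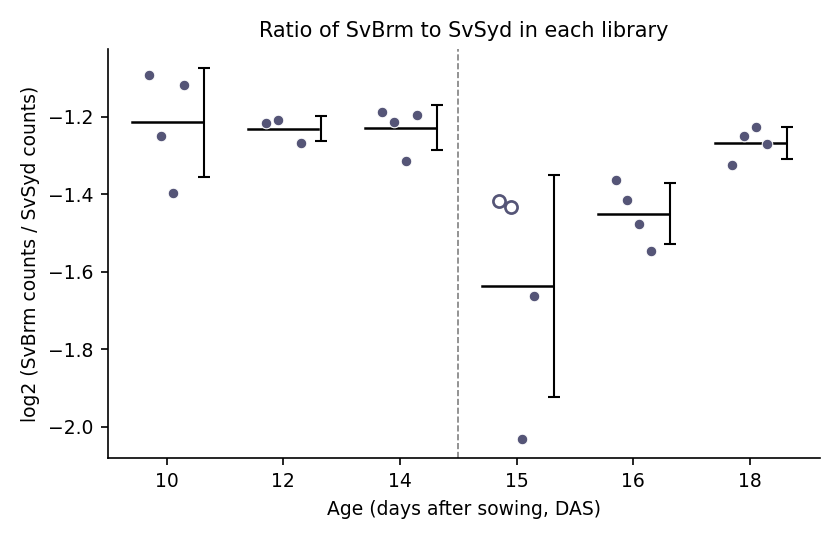
Log2 ratio of SvBrm to SvSyd counts in each library against age in DAS. Points, lines, bars, open points and the dashed line are as in the plot of levels. The ratio stays near -1.2 through 14 DAS, spreads from -2.03 to -1.42 at 15 DAS, and is at -1.27 ± 0.04 at 18 DAS.

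Other remodeling genes were taken from the annotation as a list of 10, made up of subunits of SWI/SNF and SWR1 complexes and further SNF2-family helicases, of which 9 were tested and 1 (Sevir.1G173800) never exceeded 3 counts. Among 10, 12 and 14 DAS, 4 of the 9 passed the test, and among 15, 16 and 18 DAS 8 of the 9 did, against the 35.7% and 57.7% of all genes given above. At 14 over 10 DAS 4 were called higher and 0 lower (20.7% and 21.5% of all genes). At 16 over 15 DAS 4 were higher and 0 lower (13.8% and 14.8% of all genes), and at 18 against 16 DAS 1 was higher and 6 were lower (20.2% and 16.3% of all genes). The median log2 fold change of the list was 0.23, 0.28 and -0.32 in these 3 comparisons, beside 0.01, -0.03 and -0.00 over all tested genes.

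The SWI3B-like and SNF12-like genes of the list, homologs of SWI/SNF subunits, did not pass the test at 14 over 10 DAS. Which ATPase their products assemble with was not examined. The homolog of the core subunit SWI3B (Sevir.1G051100) changed by 0.14 (95% interval -0.06 to 0.33, adjusted p = 0.253) and that of the accessory SWIB-domain subunit SNF12 (Sevir.7G076500) by 0.21 (0.03 to 0.39, adjusted p = 0.0507) on the log2 scale. The SNF12-like libraries lay at 78.2 to 82.7 CPM at 14 DAS, against 67.0 to 73.1 CPM at 10 DAS. They did not overlap, but the share of all genes with such a separation was not counted. Across the change of run, at 15 against 14 DAS, both fell, by 0.71 (adjusted p = 2.70e-06) and by 1.26 (adjusted p = 1.06e-09), which is opposite in sign to SvSyd. At 16 over 15 DAS both were called higher, by 0.28 and 0.57, and at 18 against 16 DAS both were called lower, by -0.36 and -0.30, the same signs as SvBrm and SvSyd. Another SWIB-domain gene of the list (Sevir.1G098700) was not called at 16 over 15 DAS (0.13, adjusted p = 0.274). It went the other way afterwards, with 166 ± 13.0 CPM at 18 DAS and 135 ± 3.77 CPM at 16 DAS (SD, n = 4 each).

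Among the remaining helicases, CHR31-like (Sevir.1G259000) had the largest change of 14 over 10 DAS, with 1.13 ± 0.21 CPM at 14 DAS and 0.10 ± 0.12 CPM at 10 DAS (SD, n = 4 each, log2 fold change 3.20, adjusted p = 2.96e-05), at a level that remained near 1 CPM. CHR24-like (Sevir.5G121800) was at 13.0 ± 0.85 CPM at 14 DAS and 6.90 ± 1.00 CPM at 10 DAS, and fell to 7.47 ± 1.34 CPM at 18 DAS, against 12.0 ± 1.43 CPM at 15 DAS. The helicase Sevir.1G283900, annotated with SNF2 and helicase domains, shared the calls of the members in 3 comparisons within the runs, since it was called higher at 14 over 10 DAS (0.41) and at 16 over 15 DAS (0.37) and lower at 18 against 16 DAS (-0.43). The MBD9-like gene (Sevir.1G053200), which codes for a methyl-CpG-binding domain protein, was higher at 16 than at 15 DAS (0.54) and lower at 18 than at 16 DAS (-0.32). These descriptions rest on a list chosen with earlier results known.

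**Figure D4:**
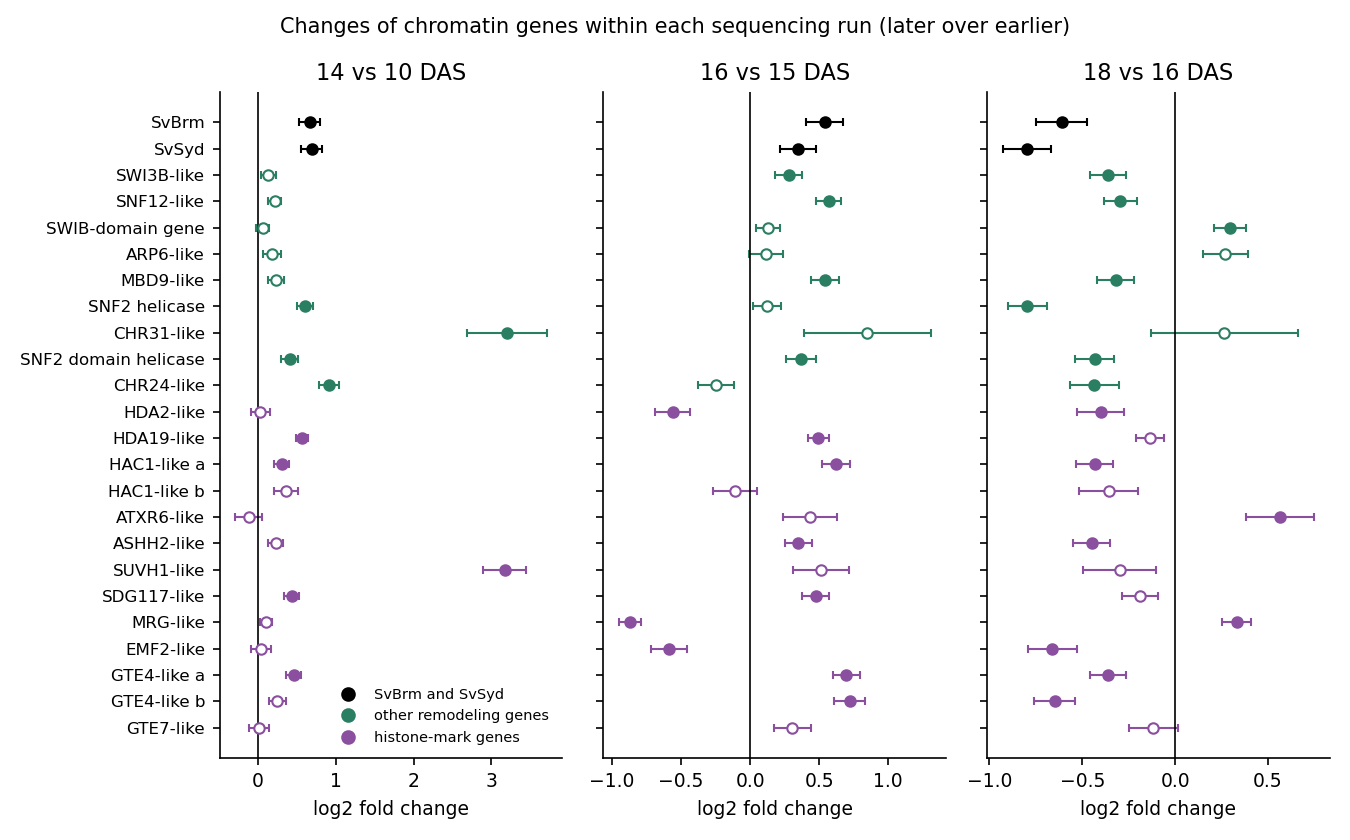
Log2 fold change (later over earlier, ± SE) of SvBrm and SvSyd, 9 other remodeling genes and 13 genes of histone marks in 3 comparisons that each lie within a sequencing run. Filled points passed an adjusted p of 0.05. At 18 against 16 DAS 6 remodeling genes and 6 histone-mark genes were called lower, as 16.3% of all genes were, and 1 and 2 were called higher, as 20.2% of all genes were.

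Genes that write, erase or read histone marks formed a second list of 13, all tested. Of these 4 differed among 10, 12 and 14 DAS, where 35.7% of all genes did, and 11 among 15, 16 and 18 DAS, where 57.7% did. At 14 over 10 DAS 5 were called higher and 0 lower (20.7% and 21.5% of all genes). At 16 over 15 DAS 6 were higher and 3 lower (13.8% and 14.8% of all genes), and at 18 against 16 DAS 2 were higher and 6 lower (20.2% and 16.3% of all genes). The largest rise of the first run was that of SUVH1-like (Sevir.1G242500), a SET domain gene, with 4.20 ± 0.45 CPM at 14 DAS and 0.49 ± 0.23 CPM at 10 DAS (SD, n = 4 each, log2 fold change 3.17, adjusted p = 5.34e-09). In the second run the largest decline of 18 against 15 DAS was that of EMF2-like (Sevir.7G001700), which codes for a VEFS-box protein of the Polycomb group and was at 44.1 ± 2.87 CPM at 18 DAS and 104.8 ± 22.2 CPM at 15 DAS (SD, n = 4 each, log2 fold change -1.25). The histone acetyltransferase gene HAC1-like a (Sevir.1G091700) and the H3K36 methyltransferase gene ASHH2-like (Sevir.1G196200) were each called higher at 16 over 15 DAS, by 0.62 and 0.35, and lower at 18 against 16 DAS, by -0.43 and -0.45, as SvBrm and SvSyd were. The bromodomain gene GTE4-like b (Sevir.1G016300) showed the same 2 calls, by 0.72 and -0.65, and the chromodomain gene MRG-like (Sevir.1G127600) the opposite ones, by -0.87 and 0.33. The other HAC1-like gene of the list, HAC1-like b (Sevir.1G091900), had no maximum at 16 DAS. It averaged 19.6 ± 5.23, 18.3 ± 3.46 and 14.3 ± 1.97 CPM at 15, 16 and 18 DAS (SD, n = 4 each).

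A further list held 11 developmental genes that are tied to BRM or SYD in Arabidopsis, as interaction partners or targets of the 2 ATPases or as members of the same families. All were tested, and 6 of them differed among 10, 12 and 14 DAS, as 35.7% of all genes did. At 12 over 10 DAS 6 were called higher, against 6.61% of all genes, a step at which neither SvBrm nor SvSyd passed the test. At 14 over 10 DAS 6 were higher and 0 lower, against 20.7% and 21.5% of all genes. The KNOX gene SvKn1 (Sevir.9G107600), ortholog of maize knotted 1, was at 344 ± 46.0 CPM at 14 DAS and 146 ± 42.6 CPM at 10 DAS (SD, n = 4 each, log2 fold change 1.23). SvRs1 (Sevir.2G029800), ortholog of maize rough sheath 1, was at 337 ± 40.2 CPM at 14 DAS and 113 ± 21.9 CPM at 10 DAS (SD, n = 4 each, log2 fold change 1.57). The NAC boundary genes SvCuc2 (Sevir.4G124400) and SvCuc3 (Sevir.6G213600) rose by 2.04 and 2.27 on the log2 scale. SvWus (Sevir.3G028500), a homeobox gene of the WUSCHEL type, was at 2.60 ± 0.86 CPM at 14 DAS and 0.34 ± 0.18 CPM at 10 DAS (SD, n = 4 each, log2 fold change 2.90). The members thus increased over the same interval with smaller fold changes than these 5 genes. They are 5 of the 6 called higher out of 11 listed, and SvWus was named for its large change. The comparison therefore does not describe the whole list.

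Later in development the groups of this list parted. At 16 over 15 DAS 1 of the 11 was higher and 1 lower, near the 13.8% and 14.8% of all genes, and at 18 against 16 DAS 5 were higher and 3 lower, against 20.2% and 16.3% of all genes. The 5 that rose were MADS-box genes of floral organs, among them SvSi1 (Sevir.4G289400), of the APETALA3 type, with 22.5 ± 7.27 CPM at 18 DAS and 0.20 ± 0.10 CPM at 16 DAS (SD, n = 4 each). Those that fell, like SvBrm and SvSyd, were SvKn1 (-0.57, adjusted p = 0.00568), SvCuc2 (-0.66, adjusted p = 0.0180) and the LEAFY ortholog SvLfy (-0.73, adjusted p = 0.00128). SvRs1 changed by -0.23 (adjusted p = 0.228) and SvCuc3 by -0.13 (adjusted p = 0.665).

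**Figure D5:**
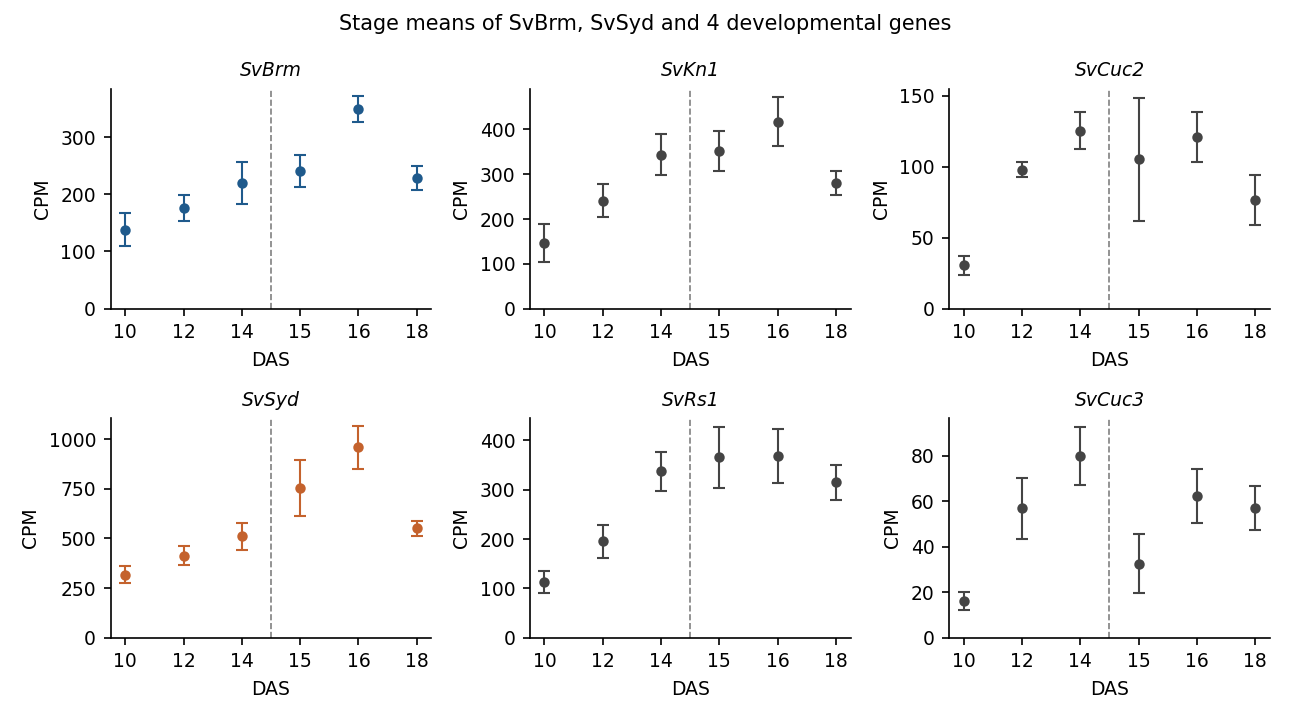
Stage means in CPM (± SD, n = 4, and n = 3 at 12 DAS) of SvBrm, SvSyd, 2 KNOX genes and 2 NAC boundary genes against age in DAS, with a dashed line between the sequencing runs. SvKn1 averaged 281 CPM at 18 DAS, against 418 CPM at 16 DAS, and SvCuc3 32.6 CPM at 15 DAS, against 79.7 CPM at 14 DAS.

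As a description of how alike the patterns were, Pearson's r of log2(CPM + 1) was taken over libraries, which share stages, runs and scaling, and carries no test. Between SvBrm and SvSyd it was 0.940 over all 23 libraries (Spearman's rho 0.929). Within the 11 libraries of the paired-end run it was 0.978 and within the 12 of the single-end run 0.815. SvSyd was the 56th most similar of 21179 genes to SvBrm over all libraries, the 16th of 21177 in the first run and the 918th of 21179 in the second. Deviations from the stage means also went together, with an r of 0.750 over the 23 libraries. A library high in SvBrm for its stage thus tended to be high in SvSyd. This was not particular to the pair, since by these deviations SvSyd ranked 254th for SvBrm and SvBrm 370th for SvSyd.

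The 5 genes most like SvBrm were Sevir.1G001400 (r = 0.976), which is annotated as a HECT-type ubiquitin ligase, Sevir.3G004000 (0.974), Sevir.2G449500 (0.974), Sevir.7G110000 (0.973) and Sevir.9G169800 (0.969). The 5 most like SvSyd were Sevir.1G386100 (r = 0.991), Sevir.2G158200 (0.987), Sevir.2G160200 (0.987), Sevir.9G331500 (0.986) and Sevir.2G424100 (0.983). No gene was in both groups of 5. Within each run r was at least 0.936 for the neighbours of SvBrm and 0.950 for those of SvSyd. Their choice by r over the same libraries favours such values, which are therefore no separate evidence of likeness. The nearest neighbour of SvSyd was at 485 ± 97.2 CPM at 15 DAS and 325 ± 42.9 CPM at 14 DAS (SD, n = 4 each), and that of SvBrm at 211 ± 38.5 CPM and 195 ± 23.5 CPM at the same stages, so that these neighbours followed the difference between the 2 members at the change of run, as their choice by likeness entails.

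Of the KNOX and boundary genes, SvKn1 had an r of 0.835 with SvBrm and 0.845 with SvSyd over 23 libraries, and SvRs1 one of 0.787 and 0.817. By rank, SvKn1 was the 760th most similar gene to SvSyd and the 621st to SvBrm over all libraries. Within the single-end run it was the 29th to SvSyd (r = 0.949) and the 1179th to SvBrm (r = 0.783). Within the paired-end run it was only the 2319th (r = 0.803) and the 2255th (r = 0.771), so the high rank was limited to 1 run. SvCuc2 had an r of 0.613 with SvBrm and 0.562 with SvSyd, and SvCuc3 one of 0.542 and 0.363, over 23 libraries. Within the paired-end run these were 0.695 and 0.784 for SvCuc2 and 0.785 and 0.846 for SvCuc3. Within the single-end run they were 0.385 and 0.242 for SvCuc2 and 0.319 and -0.207 for SvCuc3. Among the chromatin genes, the helicase Sevir.1G283900 (0.942 with SvBrm and 0.918 with SvSyd) and HAC1-like a (0.939 and 0.860) were closest to SvBrm, and ASHH2-like (0.895 and 0.937) was closest to SvSyd. The SWI3B-like gene had an r of -0.364 with SvBrm and -0.481 with SvSyd over all libraries, but 0.687 and 0.745 within the first run and 0.798 and 0.646 within the second, so the pooled value and those within the runs differed in sign.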

How the data were processed

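The members and gene lists were chosen with earlier results of these data known. The authors deposited 1 table of expected counts (estimated counts) for 35214 primary transcripts, made with Salmon 0.8.1 and tximport and not normalized. The values were rounded to whole counts. In R 4.3.3, edgeR 4.0.16 was run with TMM, filterByExpr, a mean for each stage over all 23 libraries and the quasi-likelihood F-test, with Benjamini-Hochberg adjustment over 21180 genes and a threshold of 0.05. "Late" and "early" are the means of 3 stages each. Where libraries of 2 stages are said not to overlap, the share of all genes without overlap was not counted. Log2 ratios were compared with two-sided exact permutation tests in Python 3.11.15. Alternatives were DESeq2 1.42.0, other scaling and filters, a replicate block, the stages compared alone and omission of libraries, 2 shallow ones together included. The code was tested on simulated data. All 33 pairs of libraries within a stage differed beyond sampling noise (chi-square over its degrees of freedom at least 3.54). Lists were read from the annotation in incomplete copies of the study's tables. Values were given for both members, for the list genes with the largest changes within a run, for SvKn1, SvRs1, SvCuc2 and SvCuc3, and for the 5 genes most like each member. Other list genes were named after their values were seen. Strand handling in the counting is not given in the sources used here. Sequences were not analysed here.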

Additional observations from a re-analysis of the deposited data

How the results depend on the processing

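Calls of SvBrm and SvSyd were unchanged with DESeq2 and with at least 10 counts in every library. The higher level of SvSyd at 16 than at 15 DAS, a log2 fold change of 0.35, missed the threshold with library size alone (0.27), without a filter (0.33), in a fit of these stages alone (0.32), without both shallow 15 DAS libraries (0.14) and in 14 of 23 fits that left out 1 library. All 23 such fits gave 0.25 to 0.44, and the highest, without replicate 3 of 15 DAS, kept the call. At 12 over 10 DAS SvSyd passed with library size alone (0.38) and without both shallow libraries (0.38, an alternative chosen after seeing the data), and omitting 1 library gave 0.22 to 0.47 for SvBrm and 0.28 to 0.46 for SvSyd. The difference of SvBrm between 18 and 15 DAS lay at -0.12 to 0.0040 when 1 library was left out. Omission of a library moved the log2 ratio difference over -0.078 to 0.024 for 12 against 10 DAS, -0.075 to 0.027 for 14 against 10 DAS and -0.016 to 0.031 for 14 against 12 DAS, and, without a change of sign, over -0.48 to -0.28 for 15 against 14 DAS, 0.05 to 0.26 for 16 against 15 DAS, 0.24 to 0.44 for 18 against 15 DAS and 0.15 to 0.21 for 18 against 16 DAS. Of the developmental list, 9 of 11 genes differed among 15, 16 and 18 DAS, where 57.7% of all genes did. With the stricter filter 5 did, where 10648 of 17080 genes did. That filter removes genes with low counts, SvSi1 among them, so the 2 counts are not over the same genes. Of same-numbered pairs of libraries, 12 of 55 had deviations with r over 0.1, and of differently numbered pairs 38 of 165 did. The median r was 0.028 and 0.012, and the highest 0.606 and 0.514, in this order. Whether replicate numbers paired samples was not tested. With replicate number as a block only the call of SvSyd at 16 over 15 DAS was lost (0.35, adjusted p = 0.0532). Scaling by library size moved the median of all genes by 0.10 at 15 over 14 DAS. Causes were not tested.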
